A study of Bos taurus and Bos grunniens and Bubalus bubalis with 15 samples.

Results

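RAB proteins are small GTPases that sit on the cytosolic face of membranes and mark which organelle or vesicle is which. Exchange factors load a RAB with GTP, the loaded RAB recruits effectors such as tethers and motors, and GTPase activating proteins switch it off again. Different members work at the Golgi, on early, recycling and late endosomes, and on secretory vesicles, and in skeletal muscle some of them serve the insulin-driven delivery of the glucose transporter GLUT4 to the cell surface. The RAB genes described here are those for which a probe set of the array has 1 gene symbol made of RAB, a number and at most 1 letter from A to D. There were 39 such genes with 48 probe sets, of 9155 genes with a symbol of their own and 24016 probe sets in all. All 39 Entrez identifiers led to the same symbol in the current RefSeq gene table. For a gene with several probe sets, as 9 had, the brightest by mean over the 15 arrays stands for it. Probe sets with several symbols were not used.

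The data are Affymetrix bovine array intensities from the longissimus dorsi, the long back muscle, of animals slaughtered at 36 months, with 1 array per sample. There were 9 Qinchuan cattle in groups of 3, namely intact males, castrated males and females, reared together and born close in time. The other groups were 3 Qinghai yak and 3 Guangxi buffalo, whose sex and rearing the labels do not give. The study compared the sexes within cattle, and cattle with yak and buffalo. The labels name no drug or transgene and do not give the age at castration.

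Skeletal muscle markers were bright in all groups, and 8 of 12 listed genes had a probe set. Their summed intensity was 82010 in intact male 1 and 97559 to 106828 on the other cattle arrays. It was 84155 to 91840 in yak and 83998 to 88832 in buffalo, below all cattle arrays but intact male 1. Intact males were the least alike of the groups, with a lowest correlation between 2 arrays of 0.915. The 10 measured macrophage markers summed to 28479, 7072 and 4842 in intact males 1 to 3 against 1119 to 2756 on the other cattle arrays, and the 9 fibroblast markers to 32306 to 44107 against 8550 to 12182. In yak and buffalo the fibroblast sums were 3866 to 6329 and the macrophage sums 882 to 1320. Adipocyte markers (6 measured) summed to 936 to 5193 in cattle, 885 to 1277 in yak and 1128 to 1618 in buffalo, and lymphocyte markers (8 measured) to 717 to 861, 696 to 761 and 942 to 1159. The 3′ over 5′ ratio for actin, which rises as RNA or cRNA gets shorter, was 1.17 to 1.48 in cattle, 1.49 to 1.93 in yak and 1.42 to 1.73 in buffalo. The part of these marker and actin differences in the species differences of RAB genes was not tested. Tissue was taken whole, so fewer cells of a type and less RNA per cell cannot be told apart. Intensities depend on the probes as well as on the RNA, so the levels of different genes are not set against each other.

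Of the 39 RAB genes, 28 passed the filter on dim probe sets (a mean log2 above 6.42) and were tested, so counts over the 28 do not speak for all 39. RAB27A at 6.29 and RAB7B at 6.36 lay just outside the filter, and RAB3B at 6.43 and RAB4A at 6.56 just inside. Over the 28, group means differed between the highest and lowest of the 5 groups by a median of 1.49-fold, against 1.55-fold over all probe sets tested. RAB3A and RAB40C were the steadiest, with ranges of 1.11-fold and 1.13-fold, and RAB34, RAB8A, RAB7A and RAB1A the widest, with 3.07-fold, 2.59-fold, 2.58-fold and 2.53-fold. Buffalo had the lowest group mean for 15 of the 28, which is 53.6% of them against 32.7% of all probe sets tested. Intact males had the highest mean for 10, or 35.7% against 23.4%. Replicates of the RAB genes spread most in intact males, with a median SD of 0.25 on the log2 scale, and the 3 values of RAB8B there had the largest SD, 0.82.

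**Figure D1:**
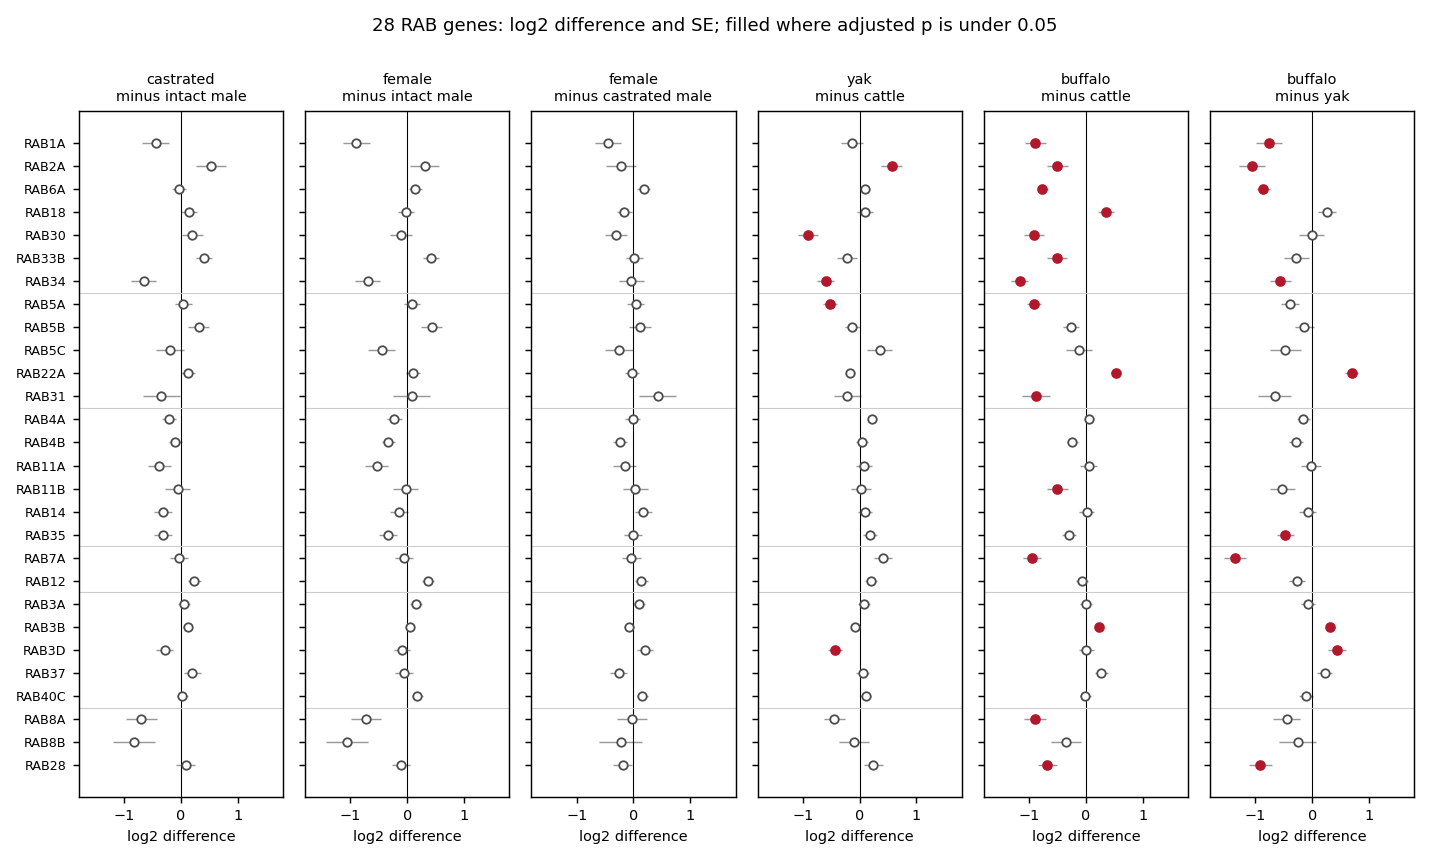
Log2 differences (x axes) of the 28 tested RAB genes (rows, grouped by role) in 6 comparisons, with bars for the SE and filled points where the adjusted p was under 0.05. No point is filled in the 3 cattle comparisons, and 15 are filled for buffalo minus cattle, 12 of them to the left of 0.

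Among cattle, no RAB gene passed the threshold in any comparison. The comparisons with intact males share the intact male arrays, so their values are given side by side. In castrated minus intact males, 0 of the 28 were called by limma, where 1.46% of all probe sets were, and 3 had an unadjusted p under 0.05 (1 higher, 2 lower), against 20.5% of all. Groups did not overlap for 3 higher and 3 lower RAB genes, where 11.3% and 13.5% of all did not. In females minus intact males, 0 of the 28 were called against 5.5% of all, and 9 had an unadjusted p under 0.05 (3 higher, 6 lower), against 27.7% of all. Groups did not overlap for 4 higher and 7 lower RAB genes, against 15.7% and 17.4% of all. In females minus castrated males 0 were called against 0.0208%, and 0 had an unadjusted p under 0.05 against 7.55%, while 4 higher and 2 lower did not overlap, against 8.9% and 8.56%. The test for any difference among the 3 groups called 0 against 1.96%, and 7 had an unadjusted p under 0.05 against 24% of all. The median log2 difference of the 28 was -0.030, -0.061 and -0.027 in the 3 pairwise comparisons, against -0.00013, 0.0079 and 0.0032 over all probe sets tested.

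The lowest adjusted p among cattle were those of RAB1A, RAB12, RAB34, RAB33B, RAB4B, RAB8B and RAB8A in females minus intact males, and the genes described here were chosen after their values were seen. RAB1A, which directs tethering of vesicles between endoplasmic reticulum and Golgi, read 4239, 2488 and 2107 in intact males, 1865, 2303 and 2044 in castrated males and 1582, 1571 and 1372 in females. Every female array lay below every array of the other cattle. The log2 difference of females from intact males was -0.89 (SE 0.23, adjusted p = 0.0568) in limma, and that of castrated from intact males -0.44 (SE 0.23, adjusted p = 0.316). RAB34, a Golgi-associated RAB also needed for primary cilia, read 423, 346 and 236 in intact males, 243, 211 and 157 in castrated males and 177, 211 and 200.2 in females. Only intact male 3 came down to the range of the other cattle. Its differences from intact males were -0.66 (SE 0.22, adjusted p = 0.146) in castrated males and -0.69 (SE 0.22, adjusted p = 0.0832) in females, both short of the threshold.

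RAB8A and RAB8B carry vesicles to the cell surface and the cilium, and RAB8A acts in GLUT4 delivery in muscle cells. RAB8A read 406, 231 and 186 in intact males, 182, 179 and 112 in castrated males and 139, 165 and 149 in females, with no overlap between intact males and the others. Its differences were -0.70 (SE 0.27, adjusted p = 0.19) in castrated males and -0.73 (SE 0.27, adjusted p = 0.119) in females. On its second probe set intact males overlapped with both groups. The differences there were -0.24 (SE 0.12, adjusted p = 0.277) and -0.23 (SE 0.12, adjusted p = 0.232). RAB8B read 1342, 562 and 449 in intact males, 281, 417 and 489 in castrated males and 395, 274 and 325 in females. Intact male 1 stood far above the rest, and the lowest intact male lay below the highest castrated male. Its differences were -0.83 (SE 0.37, adjusted p = 0.249) and -1.06 (SE 0.37, adjusted p = 0.109). The second RAB8B probe set gave -0.66 (SE 0.30, adjusted p = 0.257) and -0.59 (SE 0.30, adjusted p = 0.242).

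RAB12, which steers transferrin receptors to lysosomes, went the other way: it read 3842, 4784 and 4928 in intact males, 5217, 5195 and 5407 in castrated males and 5701, 5409.8 and 6307 in females. The 3 groups did not overlap, and females minus intact males was 0.37 (SE 0.11, adjusted p = 0.0831). RAB33B, a Golgi RAB that also binds the autophagy machinery, was likewise brighter outside intact males by 0.40 (SE 0.14, adjusted p = 0.167) in castrated males and 0.42 (SE 0.14, adjusted p = 0.101) in females. RAB11A and RAB4B, which return cargo from recycling endosomes to the surface, differed in females by -0.53 (SE 0.20, adjusted p = 0.128) and -0.33 (SE 0.12, adjusted p = 0.108). Of the other RAB genes, RAB2A had the largest castrated minus intact male difference, 0.53 (SE 0.26, adjusted p = 0.285).

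Which of these values passed the threshold changed with the intact male that was left out. Intact male 1 had the highest macrophage marker sum and the highest values of RAB1A, RAB8A, RAB8B and RAB34, and intact male 3 the lowest macrophage sum of its group and the lowest values of all 4. The fibroblast sums of intact males 1 to 3 had the same order, at 44107, 35268 and 32306. Their muscle marker sums were 82010, 104395 and 101435. Without intact male 3, females minus intact males passed the threshold for RAB1A at -1.10 (adjusted p = 0.0172), RAB8A at -0.95 (adjusted p = 0.0424), RAB8B at -1.37 (adjusted p = 0.0405), RAB11A at -0.71 (adjusted p = 0.0434), RAB12 at 0.43 (adjusted p = 0.046) and RAB34 at -0.91 (adjusted p = 0.0187). RAB34 then also passed in castrated minus intact males, at -0.88 (adjusted p = 0.0344). Over all probe sets 15.2% and 6.91% were then called in these comparisons. Without intact male 1, RAB8B fell short by more, with -0.59 (adjusted p = 0.212), and RAB1A in females was -0.60 (adjusted p = 0.0574). With all 9 cattle arrays kept, 5.5% of all probe sets were called in females and 1.46% in castrated males, each against intact males. Of the macrophage markers 6 of 10 and 1 of 10 were then called lower, and of the fibroblast markers 8 of 8 and 6 of 8. The part of these cells in the RAB values was not tested.

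**Figure D2:**
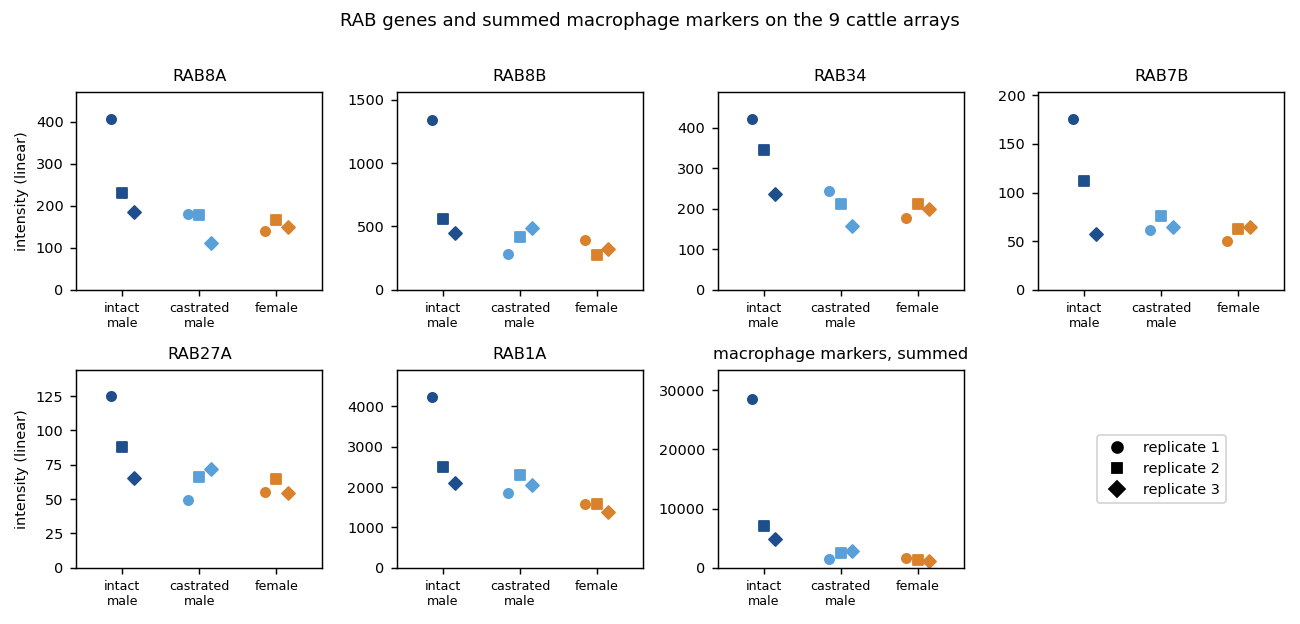
Intensity (y axes, linear) of RAB8A, RAB8B, RAB34, RAB7B, RAB27A and RAB1A on the 9 cattle arrays, with the summed intensity of 10 macrophage markers in the last panel. Shapes mark the replicate number, which does not pair animals, and intact male 1 is the highest array in every panel.

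Between species, most calls among RAB genes were to lower values in buffalo, such as RAB6A, RAB5A, RAB7A and RAB34, while RAB22A was higher there. Their share called lay near that of all probe sets in buffalo minus cattle and below it in yak minus cattle. In yak minus cattle, limma called 5 of the 28 (1 higher, 4 lower), or 17.9%, against 29.1% of all probe sets, where 13.2% were higher and 15.9% lower. In buffalo minus cattle it called 15 (3 higher, 12 lower), or 53.6%, against 51.4% of all, where 23% were higher and 28.4% lower. In buffalo minus yak it called 10 (3 higher, 7 lower), or 35.7%, against 42.2% of all, where 19.5% were higher and 22.7% lower. Groups did not overlap for 0 higher and 1 lower RAB genes in yak minus cattle (8.83% and 10.4% of all), for 2 and 8 in buffalo minus cattle (13.8% and 18.3%) and for 4 and 11 in buffalo minus yak (26.7% and 28.5%). The median log2 difference of the 28 was 0.048, -0.28 and -0.27 in these comparisons, against -0.025, -0.026 and 0.013 over all probe sets tested. With quantile normalisation, a scaling that moves buffalo minus cattle calls over all probe sets from 44.8% to 55.8% higher, the split of the RAB genes was 6 higher and 10 lower. The median differences of the RAB genes were then 0.076, -0.17 and -0.20, against 0.012, 0.065 and 0.055 over all probe sets. With intact males left out of cattle the RAB medians were 0.072 in yak and -0.18 in buffalo, and with probe sets averaged buffalo medians were -0.18 from cattle and -0.18 from yak. Without yak 3 the yak minus cattle median was -0.00098. The count in yak minus cattle was 2 without yak 1 or yak 2, where 15.8% and 17.4% of all probe sets were called. That in buffalo minus yak ranged from 6 without yak 2 (against 32.8% of all) to 13 without intact male 1 (against 46.5%). In that comparison intact male 1 enters the estimate of the spread alone. Of the fibroblast markers 7 of 8 were lower in yak and 8 of 8 in buffalo than in cattle, and of the macrophage markers 3 and 5 of 10. Of the 8 muscle markers 3 were lower in yak than in cattle, and 4 were lower and 1 higher in buffalo. The yak and buffalo comparisons use the same 9 cattle arrays. The array holds cattle sequences, and how well yak and buffalo RNA matches the RAB probes was not measured, so a difference in RNA and a difference in match cannot be told apart.

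All 7 tested RAB genes of the endoplasmic reticulum and Golgi were called in buffalo minus cattle, 6 lower and 1 higher. Of all probe sets 28.4% were lower there and 23% higher. The calls of RAB2A, RAB18 and RAB33B among the 7 did not hold with every array left out. In the other comparisons 1 was higher and 2 were lower in yak than in cattle (13.2% and 15.9% of all). Another 4 calls were to lower values in buffalo than in yak (22.7% of all). RAB6A, which runs traffic from endosomes and within the Golgi back toward the endoplasmic reticulum, read 1082, 1013 and 1016 in intact males, 1045, 935 and 1064 in castrated males, 1094, 1163 and 1189 in females, 1024, 1112 and 1288 in yak and 578, 629.8 and 649 in buffalo. All 3 buffalo lay below all 12 other arrays, females lay above the other cattle, and yak overlapped with each cattle group. Buffalo minus cattle was -0.77 (SE 0.096, adjusted p = 2.22e-05), or 1.70-fold lower, and buffalo minus yak -0.86 (SE 0.12, adjusted p = 7.42e-05). RAB1A read 2052, 1932 and 1653 in yak and 843, 1152 and 1377 in buffalo. Buffalo were below all yak and overlapped only with the females among cattle. The buffalo differed from cattle by -0.89 (SE 0.19, adjusted p = 0.00139), and from yak by -0.76 (SE 0.23, adjusted p = 0.0175). The latter call was lost without yak 1, yak 2 or buffalo 1 (adjusted p 0.0524 to 0.0744) and with quantile normalisation, at -0.49 (adjusted p = 0.0825).

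RAB2A, which acts between endoplasmic reticulum and Golgi and in the fusion of autophagosomes with lysosomes, was the 1 Golgi RAB that was higher in yak. It read 1287, 1441 and 2031 in intact males, 2245, 2599 and 1974 in castrated males, 2788, 1393 and 1847 in females, 3161, 2826 and 2466 in yak and 1254, 1240.2 and 1508 in buffalo. Yak overlapped with castrated males and females, and buffalo overlapped with intact males and female 2 and lay below every yak array. Yak minus cattle was 0.56 (SE 0.19, adjusted p = 0.0372), buffalo minus cattle -0.51 (SE 0.19, adjusted p = 0.0363) and buffalo minus yak -1.07 (SE 0.23, adjusted p = 0.00224). The difference from yak held with every array left out. The yak minus cattle call was lost on leaving out any of 7 arrays (intact male 2, castrated male 1 or 3, female 3 or any yak; adjusted p 0.0506 to 0.168), and the buffalo minus cattle call without castrated male 2, buffalo 1 or buffalo 2 (adjusted p 0.06 to 0.121). With intact males left out of cattle the yak difference was 0.42 (adjusted p = 0.146), and with quantile normalisation the buffalo difference was -0.20 (adjusted p = 0.399).

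RAB30 and RAB34 were lower in both yak and buffalo. RAB30, a Golgi RAB that helps keep the organelle's shape, read 142, 180.1 and 217 in intact males, 235, 207 and 181 in castrated males, 197, 127 and 174 in females, 129, 92.4 and 58.1 in yak and 95.2, 80.3 and 91.2 in buffalo. Buffalo fell below all cattle, and yak 1 alone reached the lowest cattle array. Yak minus cattle was -0.91 (SE 0.18, adjusted p = 0.00237) and buffalo minus cattle -0.92 (SE 0.18, adjusted p = 0.000835), while buffalo minus yak was -0.0061 (SE 0.22, adjusted p = 0.984), with a 95% interval of -0.48 to 0.47.

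RAB34 read 129, 168 and 152 in yak and 92.4, 95.1 and 99.0 in buffalo, against 157 to 423 over the cattle arrays given above. Buffalo lay below every other array, and yak overlapped with castrated male 3. Buffalo minus cattle was -1.17 (SE 0.15, adjusted p = 3.35e-05), the widest fall from cattle among the brightest probe sets, at 2.24-fold, and yak minus cattle -0.60 (SE 0.15, adjusted p = 0.0103). The yak call was lost without yak 1 (adjusted p 0.0726) or with intact males left out of cattle, where the difference was -0.37 (adjusted p = 0.114). Buffalo minus yak was -0.57 (SE 0.19, adjusted p = 0.0257) and was lost on leaving out any of 5 arrays (yak 2 or 3 or any buffalo; adjusted p 0.051 to 0.095).

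RAB18, a RAB of the endoplasmic reticulum and lipid droplets, was the Golgi-class member called higher in buffalo, with means of 943 against 720.1 and a difference of 0.35 (SE 0.13, adjusted p = 0.0412). RAB33B was lower, with means of 83.2 against 122 and -0.51 (SE 0.18, adjusted p = 0.0272). The RAB18 call was lost on leaving out any of 9 arrays (intact male 2, castrated male 1, female 2 or 3, any yak, buffalo 2 or 3; adjusted p 0.0508 to 0.23) and with intact males left out of cattle, at 0.34 (adjusted p = 0.0681), and the RAB33B call without buffalo 1 or 3 (adjusted p 0.144 to 0.156). With quantile normalisation RAB18 was also called higher in buffalo than in yak, at 0.55 (SE 0.16, adjusted p = 0.0141), against 0.26 (SE 0.17, adjusted p = 0.219) without it.

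Early endosome members did not share a direction: of 5 tested, 2 were lower and 1 higher in buffalo than in cattle, and 1 was lower in yak. Of all probe sets 28.4% were lower and 23% higher in buffalo than in cattle, and 15.9% lower in yak. RAB5A, which drives fusion of endocytic vesicles with early endosomes, read 1032, 1052 and 926 in intact males, 918, 1025 and 1163 in castrated males, 924, 1154 and 1127 in females, 810.4, 682 and 654 in yak and 442, 655 and 543 in buffalo. Every yak and every buffalo array lay below every cattle array. Yak minus cattle was -0.52 (SE 0.13, adjusted p = 0.0094) and buffalo minus cattle -0.91 (SE 0.13, adjusted p = 7.08e-05). The yak call was lost without yak 2 (adjusted p 0.0514). Its paralogs RAB5B and RAB5C were not called, with buffalo minus cattle -0.27 (SE 0.14, adjusted p = 0.121) and -0.12 (SE 0.22, adjusted p = 0.667).

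RAB22A, which sorts cargo on early endosomes toward recycling, was higher in buffalo than anywhere else on its brightest probe set. It read 251, 266 and 284 in intact males, 302, 291 and 284 in castrated males, 310.4, 307 and 249.8 in females, 284, 234 and 233 in yak and 418, 405 and 417 in buffalo. The 3 buffalo lay within a narrow band above all 12 other arrays. Their difference from cattle was 0.53 (SE 0.094, adjusted p = 0.000423) and buffalo minus yak 0.69 (SE 0.11, adjusted p = 0.000365), and both held in each alternative and with each array left out. A second RAB22A probe set was too dim for the filter, so the average over probe sets left it out. Without the filter it differed in buffalo by 0.22 (SE 0.11, adjusted p = 0.0918) from cattle and -0.0012 (SE 0.13, adjusted p = 0.993) from yak. RAB31, a close relative of RAB22A that carries cargo between the Golgi and endosomes, was lower instead. It read 718, 377 and 358 in intact males, 299.6, 324 and 474 in castrated males, 317, 616 and 589 in females, 389, 321 and 400.5 in yak and 292, 203 and 198 in buffalo. All buffalo lay below all cattle, among which intact male 1 and females 2 and 3 were high. The difference from cattle was -0.88 (SE 0.24, adjusted p = 0.00753). No test of the difference between the paralogs was made.

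RAB7A, which governs fusion of late endosomes and autophagosomes with lysosomes, had the largest buffalo minus yak difference of the 28 tested RAB genes. It read 865, 764 and 739.5 in intact males, 948, 739 and 657 in castrated males, 721, 751 and 790.3 in females, 1320.3, 1064 and 782 in yak and 451, 319.7 and 412 in buffalo. Buffalo lay below every other array, and yak 1 and yak 2 above every cattle array. Buffalo minus yak was -1.37 (SE 0.19, adjusted p = 0.000104), or 2.58-fold lower, and buffalo minus cattle -0.95 (SE 0.16, adjusted p = 0.000236). Yak minus cattle was 0.41 (SE 0.16, adjusted p = 0.0647) and was not called. RAB12, the other tested member of the late endosome class, was not called in any species comparison, with buffalo minus cattle -0.073 (SE 0.11, adjusted p = 0.597).

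Of 6 recycling endosome members tested, 1 was called in buffalo minus cattle, 1 in buffalo minus yak and 0 in yak minus cattle, where 51.4%, 42.2% and 29.1% of all probe sets were. RAB11A, RAB14 and RAB4A, which return receptors to the cell surface, had buffalo minus cattle differences of 0.045 (SE 0.14, adjusted p = 0.809), 0.011 (SE 0.13, adjusted p = 0.949) and 0.054 (SE 0.090, adjusted p = 0.637). Their 95% intervals were -0.26 to 0.35, -0.26 to 0.28 and -0.14 to 0.25. These values depended on the scaling: with quantile normalisation RAB11A and RAB14 were called higher in buffalo, at 0.35 (SE 0.13, adjusted p = 0.0351) and 0.30 (SE 0.11, adjusted p = 0.0358). RAB11B was lower in buffalo, with means of 671 against 957 and -0.50 (SE 0.18, adjusted p = 0.0303), a call lost without intact male 2, female 3 or buffalo 2 (adjusted p 0.0505 to 0.201) or with quantile normalisation, at -0.25 (adjusted p = 0.295). RAB35, which drives fast recycling and cell division, read 416, 268 and 291 in intact males, 255, 248 and 253 in castrated males, 252, 255 and 241 in females, 321, 323 and 286 in yak and 222, 187 and 252 in buffalo. Buffalo lay below yak and overlapped with castrated males and females. Buffalo minus yak was -0.47 (SE 0.15, adjusted p = 0.0209) and buffalo minus cattle -0.30 (SE 0.12, adjusted p = 0.0565). The former was lost without yak 1, yak 2 or buffalo 2 (adjusted p 0.0629 to 0.0927), with quantile normalisation, at -0.36 (adjusted p = 0.0624), and with the gene's probe sets averaged, at -0.17 (adjusted p = 0.213).

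RAB genes of regulated secretion include the RAB3 paralogs, known for synaptic and secretory vesicles, and 5 of 10 passed the filter. In this class 1 was lower in yak, 1 higher in buffalo than in cattle and 2 higher in buffalo than in yak. Of all probe sets 15.9%, 23% and 19.5% were called in these directions. RAB3D, found on granules of secretory cells, read 225, 157 and 167 in intact males, 160.1, 152 and 126 in castrated males, 173, 177 and 159 in females, 89.4, 125 and 144 in yak and 166, 149 and 183 in buffalo. Yak ran low, overlapping with castrated male 3, and buffalo lay above all yak and within cattle. Yak minus cattle was -0.44 (SE 0.13, adjusted p = 0.0238), buffalo minus yak 0.44 (SE 0.16, adjusted p = 0.0397) and buffalo minus cattle 0.0066 (SE 0.13, adjusted p = 0.969). The yak minus cattle call was lost without yak 1 or 2 (adjusted p 0.0576 to 0.188) and the buffalo minus yak call without yak 1, yak 2, buffalo 1 or buffalo 3 (adjusted p 0.0632 to 0.188). The yak minus cattle call was also lost with quantile normalisation, at -0.36 (adjusted p = 0.0529), and with intact males left out of cattle, at -0.37 (adjusted p = 0.0706).

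RAB3B, near the filter's edge, read 63.3, 67.8 and 64.8 in intact males, 74.4, 70.3 and 71.6 in castrated males, 77.4, 62.0 and 64.2 in females, 65.7, 58.8 and 67.0 in yak and 80.5, 84.9 and 84.1 in buffalo. All buffalo exceeded all other arrays by a small margin. They were higher than cattle by 0.23 (SE 0.065, adjusted p = 0.00853) and than yak by 0.31 (SE 0.080, adjusted p = 0.00655). RAB3A differed by less than 0.1 on the log2 scale in each species comparison, with buffalo minus cattle -0.0044 (SE 0.10, adjusted p = 0.974) and a 95% interval of -0.23 to 0.22. RAB37 and RAB40C were not called, with buffalo minus cattle 0.27 (SE 0.11, adjusted p = 0.0557) and -0.010 (SE 0.10, adjusted p = 0.938), though RAB37 passed the threshold with quantile normalisation, at 0.28 (SE 0.11, adjusted p = 0.0378).

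Of the 3 members that serve surface delivery and the cilium, 2 were lower in buffalo than in cattle and 1 lower than in yak. Of all probe sets 28.4% and 22.7% were lower in these comparisons. RAB8A read 120.5, 149 and 121 in yak and 79.3, 89.6 and 104 in buffalo, against 112 to 406 in cattle. Buffalo lay below every other array, and intact male 1 far above them. Buffalo minus cattle was -0.90 (SE 0.19, adjusted p = 0.00137) and yak minus cattle -0.45 (SE 0.19, adjusted p = 0.0896). RAB28, a cilium RAB needed by photoreceptors, read 146, 109.6 and 103 in intact males, 103, 127 and 153 in castrated males, 122, 112 and 92.4 in females, 145, 119 and 163 in yak and 77.4, 87.4 and 43.8 in buffalo. Buffalo were below all other arrays, and buffalo 3 was the lowest. The difference from cattle was -0.68 (SE 0.16, adjusted p = 0.00366) and that from yak -0.92 (SE 0.20, adjusted p = 0.00264). RAB8B was not called, with buffalo minus cattle -0.35 (SE 0.27, adjusted p = 0.284).

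**Figure D3:**
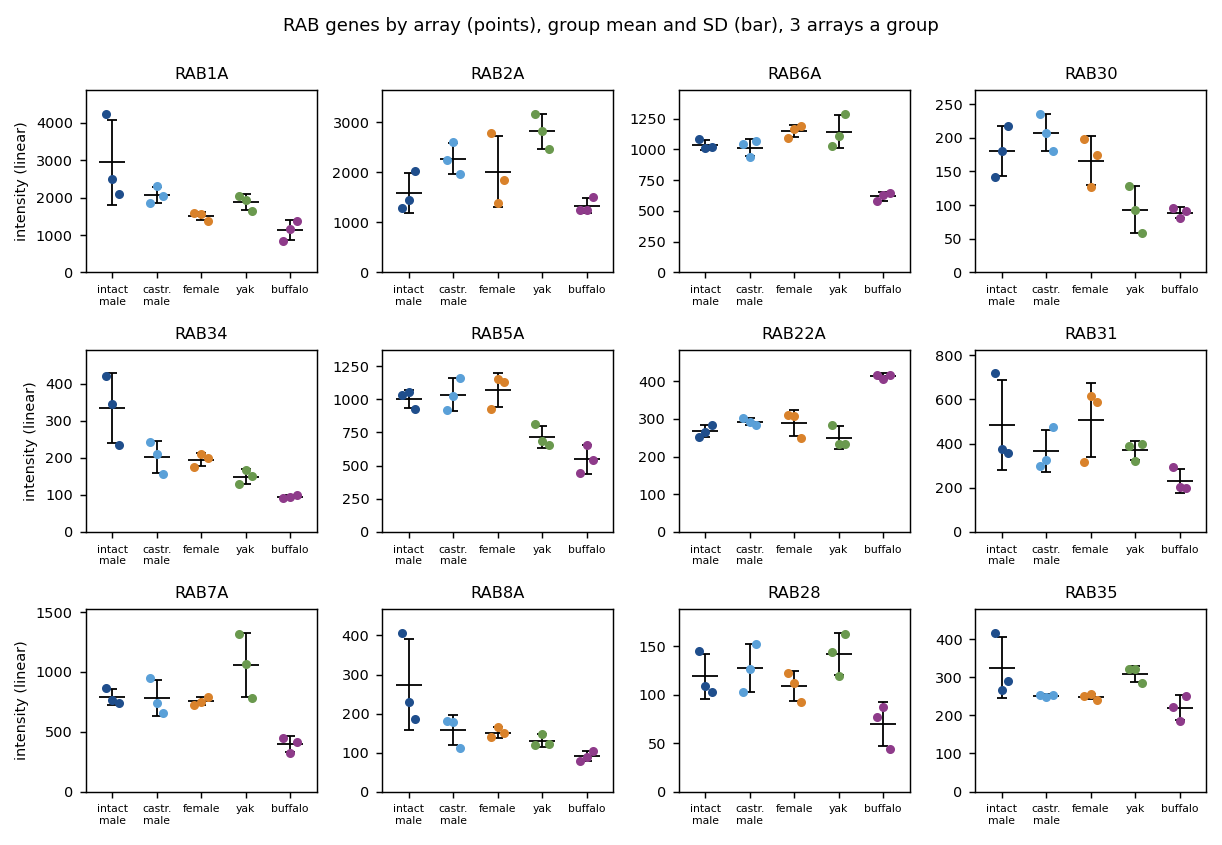
Intensity (y axes, linear) of 12 RAB genes by array (points) in the 5 groups, with the mean and SD of 3 arrays as bars. Buffalo lie lowest in RAB6A, RAB34, RAB7A, RAB8A and RAB28, highest in RAB22A, and beside yak in RAB30.

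Several genes have a second probe set, which reads other letters of the same transcripts or other transcripts of the gene, and in the species comparisons some pairs differed. Both probe sets were tested for 5 genes, and their signs agreed for 3 in yak minus cattle, 3 in buffalo minus cattle and 2 in buffalo minus yak. The second RAB7A probe set read 860.4, 688 and 550.5 in yak, 66.1, 57.2 and 54.3 in buffalo and 373 to 968 in cattle. The fall in buffalo was -2.77 (SE 0.18, adjusted p = 8.54e-08) from cattle and -3.23 (SE 0.22, adjusted p = 2.46e-07) from yak, larger than on the brightest probe set. Among cattle it differed from intact males by -0.48 (SE 0.24, adjusted p = 0.297) in castrated males and -0.65 (SE 0.24, adjusted p = 0.122) in females. The second RAB6A probe set gave buffalo minus cattle -0.26 (SE 0.099, adjusted p = 0.0411), smaller than on the brightest. For RAB8A the second probe set was lower in yak, -0.34 (SE 0.086, adjusted p = 0.0105), where the brightest was not called, and in buffalo it was lower at -0.26 (SE 0.086, adjusted p = 0.0225).

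The second probe sets of RAB35 and RAB8B were not called in any species comparison. RAB35 buffalo minus yak was 0.13 (SE 0.081, adjusted p = 0.201) there, the opposite sign of the brightest, and RAB8B buffalo minus cattle 0.50 (SE 0.25, adjusted p = 0.115). RAB5B had probe sets that differed widely in buffalo. Its second one, too dim for the filter, read 184, 169 and 147 in buffalo and 22.3 to 30.9 on the other 12 arrays. In a fit without the filter, over 24016 probe sets, it was higher in buffalo than in cattle by 2.12 (SE 0.074, adjusted p = 2.17e-10) and than in yak by 2.08 (SE 0.091, adjusted p = 3.94e-09). That probe set was chosen after its values were seen. The brightest RAB5B probe set ran slightly the other way, at -0.27. The RAB7A, RAB6A and RAB8A falls from cattle were thus in the same direction on both probe sets, and for RAB35, RAB8B and RAB5B the direction depended on the probe set.

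**Figure D4:**
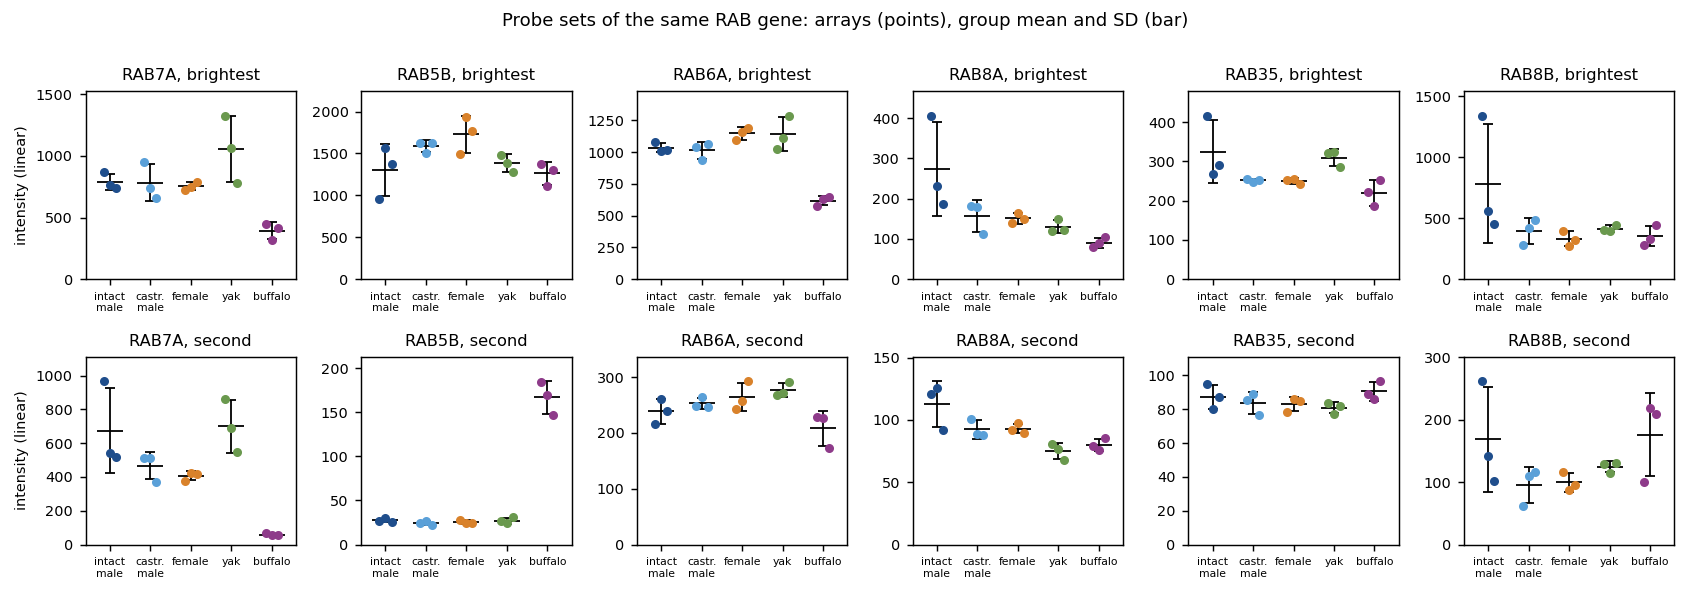
Intensity (y axes, linear) of the brightest (top) and second (bottom) probe set of 6 RAB genes by array, with the mean and SD of 3 arrays as bars. Buffalo are lowest on both probe sets of RAB7A, and on the second RAB5B probe set they read 147 to 184 against 22.3 to 30.9 on the other arrays.

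The 11 RAB genes under the filter were RAB3C, RAB7B, RAB9B, RAB15, RAB19, RAB25, RAB26, RAB27A, RAB27B, RAB29 and RAB40B. In the fit without the filter, 0 of them were called in the 3 cattle comparisons, where 0.908%, 3.53% and 0.0167% of all probe sets were. Calls were made for 3 of the 11 in yak minus cattle, 3 in buffalo minus cattle and 5 in buffalo minus yak, against 21.4%, 49.7% and 37.5% of all. The genes named from here on among the 11 were chosen after their values were seen. RAB27B, which docks secretory granules and exosomes, read 53.3, 60.6 and 77.7 in yak against 31.5 to 52.5 in cattle and was higher by 0.49 (SE 0.088, adjusted p = 0.00144). RAB26, a RAB of secretory granules, read 23.3 to 26.3 in yak, below every other array, and differed from cattle by -0.41 (SE 0.089, adjusted p = 0.00494). RAB9B, a relative of the RAB9A that returns receptors from late endosomes to the Golgi, read 61.8, 58.1 and 48.5 in buffalo, above all other arrays, and differed from cattle by 0.50 (SE 0.093, adjusted p = 0.000586). RAB3C and RAB19 were also higher in buffalo than in cattle, by 0.31 (SE 0.088, adjusted p = 0.00999) and 0.25 (SE 0.073, adjusted p = 0.0121). Buffalo minus yak was 0.57 (SE 0.11, adjusted p = 0.0016) for RAB9B, 0.27 (SE 0.089, adjusted p = 0.028) for RAB19, 0.37 (SE 0.11, adjusted p = 0.0178) for RAB26, -0.48 (SE 0.11, adjusted p = 0.00347) for RAB27B and 0.37 (SE 0.096, adjusted p = 0.00774) for RAB29. RAB27A differed in yak by -0.44 (SE 0.14, adjusted p = 0.0402) on its brightest probe set and by -0.14 (SE 0.11, adjusted p = 0.401) on its second.

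RAB7B and RAB27A had the same order of intact males as the macrophage markers and the fibroblast markers. This order was not particular to these RAB genes: RAB11A, RAB14 and RAB31 also had it, among others. RAB2A, RAB12 and RAB30, among others, ran the opposite way. The part of macrophages or fibroblasts in these values was not tested. RAB7B, which is known in monocytes and macrophages, read 175, 111 and 57.8 in intact males and 48.7 to 75.4 on the 12 other arrays. RAB27A, which docks granules in immune and pigment cells, read 125, 88.3 and 65.7 in intact males and 44.9 to 76.9 elsewhere. Females minus intact males was -0.53 (SE 0.19, adjusted p = 0.133) for RAB27A in the fit without the filter.

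The proteins that load, unload, escort and bind RABs were followed with a list of 117 genes, of which 60 had a probe set and 51 were tested. Among cattle 0 were called in castrated minus intact males, 0 in females minus castrated males and 1 in females minus intact males, or 1.96% of the list against 5.5% of all probe sets. That gene was RABAC1, whose product helps move prenylated RABs between membrane and cytosol. It read 2923, 2674 and 2785 in intact males, 1859, 2009 and 2050.2 in castrated males and 2095, 1934 and 2017 in females. All intact males were above all other cattle, and females minus intact males was -0.47 (SE 0.11, adjusted p = 0.0405), castrated minus intact males -0.50 (SE 0.11, adjusted p = 0.0582). The female call was lost on leaving out any of 8 of the 9 cattle arrays (all but intact male 3; adjusted p 0.056 to 0.13). Without intact male 3, 7 of the list were called in females and 2 in castrated males, where 15.2% and 6.91% of all probe sets were.

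Between species the list was called about as often as all probe sets. In yak minus cattle 7 were higher and 7 lower (27.5% against 29.1%), in buffalo minus cattle 12 higher and 15 lower (52.9% against 51.4%), and in buffalo minus yak 11 higher and 15 lower (51% against 42.2%). Without yak 2, 9 were called in yak minus cattle, where 17.4% of all probe sets were. CCZ1, a part of the exchange factor for RAB7, read 515, 409 and 543 in intact males, 500.4, 455 and 426 in castrated males, 496, 429 and 461 in females, 886, 877 and 747 in yak and 228, 253 and 243 in buffalo. Yak lay above and buffalo below all cattle. Yak minus cattle was 0.81 (SE 0.11, adjusted p = 0.000169), buffalo minus cattle -0.91 (SE 0.11, adjusted p = 1.41e-05) and buffalo minus yak -1.72 (SE 0.13, adjusted p = 6.29e-07). RAB7A stood in the same order, with yak minus cattle not called. MON1A, also listed as an exchange factor, did not. It read 192, 179 and 225 in yak and 209 to 238 in buffalo, below the 239 to 336 of cattle. MON1B had means of 115 in yak, 136 in buffalo and 130 to 137 in the cattle groups.

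TBC1D4, also known as AS160, is a GTPase activating protein that holds back RAB8A and RAB14 in the insulin response of muscle. It read 449, 589 and 637 in intact males, 528, 612 and 682 in castrated males, 659, 859.9 and 871 in females, 563, 455 and 369 in yak and 214, 199.8 and 133 in buffalo. All buffalo lay below all other arrays, at -1.75 (SE 0.17, adjusted p = 2.51e-06) from cattle, while RAB14 was not called and RAB8A was lower. Its paralog TBC1D1 was higher in buffalo than in yak, with means of 126 against 85.1 and a difference of 0.49 (SE 0.079, adjusted p = 0.000285). Other GTPase activating proteins lower in buffalo than in cattle were SGSM3 at -1.42 (SE 0.18, adjusted p = 2.52e-05) and TBC1D14 at -0.92 (SE 0.092, adjusted p = 3.02e-06). TBC1D8 and TBC1D17 were higher in yak than in cattle, by 0.73 (SE 0.12, adjusted p = 0.000894) and 0.84 (SE 0.15, adjusted p = 0.00126), and TBC1D8 was lower in buffalo than in yak at -0.98 (SE 0.15, adjusted p = 0.00021).

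Among exchange factors, MADD, which loads RAB3 and RAB27 proteins, was lower in yak at -0.40 (SE 0.076, adjusted p = 0.00177) and in buffalo at -0.70 (SE 0.076, adjusted p = 6.27e-06) than in cattle. Both MADD calls were lost when the gene's probe sets were averaged, with differences of -0.13 (adjusted p = 0.177) and -0.10 (adjusted p = 0.233). DENND4A, an exchange factor for RAB10, read 142, 307 and 308 in buffalo and 94.5, 89.1 and 75.8 in yak. Buffalo 1 lay far below the other 2 buffalo and above all yak, and buffalo minus yak was 1.32 (SE 0.21, adjusted p = 0.000293). RILPL1, an effector that binds RAB8A and RAB10 and acts at the cilium, read 1124, 1608 and 2339 in intact males, 2571, 2197 and 2122 in castrated males, 3638, 2678 and 2831 in females, 5392, 5597 and 3785 in yak and 1945, 1248 and 1770.4 in buffalo. Yak exceeded every other array, with yak minus cattle 1.11 (SE 0.20, adjusted p = 0.00145) and buffalo minus yak -1.57 (SE 0.25, adjusted p = 0.000253). The regulators thus moved in both directions in each species comparison.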

How the data were processed

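The deposited table holds intensities of 24128 probe sets on 15 arrays, on a linear scale, as the authors summarised them. How background was corrected and values normalised is not stated in the sources used here. Control probe sets (112) were set aside. Log2(intensity + 16) was taken with no further normalisation, and 14409 of 24016 were tested, those whose mean lay above the 40th percentile. Fold changes are on that log2 scale and understate the change of dim genes.

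Tests used limma 3.58.1 in R 4.3.3 (empirical Bayes with a trend). Cattle comparisons used the 9 cattle arrays. Species comparisons used all 15, cattle being the average over its 3 groups. P-values are two-sided with Benjamini-Hochberg adjustment over all probe sets tested and a threshold of 0.05. An exact permutation test of 3 against 3 cannot go below 0.1. The limma fit was first tested on simulated data, for castrated minus intact males and yak minus cattle alone. Of 200 probe sets changed 2-fold it recovered 74.5% and 86.5%. Of 200 changed 1.5-fold it recovered 16% and 52%, so 0 calls among cattle do not show equal levels. Groups came from the labels, in which replicates are called biological. The small number of arrays limits the precision, and an array gives no detection call here.

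Values by array are given for RAB genes called in a comparison, at most 10 per comparison by smallest p, and at most 5 called regulators per comparison are named. MON1A and MON1B are named in addition, chosen after their values were seen. Members, roles, regulators and markers were chosen with earlier results of these data known. Gene names are those of the platform annotation. No sequence is shown, as no sequence table was used here.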

Additional observations from a re-analysis of the deposited data

How the results depend on the processing

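Of the 30 RAB calls between species, 0 changed direction under the alternatives. These were another added value, another filter or none, quantile normalisation, no trend and averages of the probe sets that passed the filter. Others were array weights, cattle without intact males, a replicate block and each array left out. Filters, trend, block and arrays outside a comparison do not alter a gene's difference, so they could not turn its direction. All arrays in 1 fit was an alternative for the cattle comparisons alone, as the species fit already held all 15. Calls held in every alternative in which the gene was tested for 1 of 5 in yak minus cattle, 11 of 15 in buffalo minus cattle and 6 of 10 in buffalo minus yak. The 11 and the 6 both include RAB3B and RAB28, which a filter at the 60th percentile left untested. Array weights gave intact males 1 to 3 weights of 0.216, 8.05 and 0.491. With array weights 3 RAB genes were called in castrated minus intact males, where 24.5% of all probe sets were. In females minus intact males 6 were called against 35.2% of all, and in yak minus cattle 10 against 48.7%. For any cattle difference 7 were called. The share of all probe sets for that test was counted in the main fit alone, at 1.96%. Its counts under the alternatives therefore have no share beside them. With all 15 arrays in the fit, 3 were called in females minus intact males against 13.3% of all, and 1 for any cattle difference. No filter gave 8 in yak minus cattle against 21.4% of all, and cattle without intact males gave 3 against 21.6%. Leaving out 1 array gave 0 to 1 in castrated minus intact males, 0 to 6 in females minus intact males, 0 to 2 for any cattle difference, 2 to 6 in yak minus cattle (2 without yak 1 or yak 2), 12 to 17 in buffalo minus cattle and 6 to 13 in buffalo minus yak (6 without yak 2, 13 without intact male 1). Over all probe sets the pairwise ranges, in that order, were 0.285% to 6.91%, 0.534% to 15.2%, 15.8% to 32.2%, 43.1% to 54.7% and 32.8% to 46.5%. Arrays of groups outside a comparison, which enter its estimate of the spread, were left out too, a choice made after the data were seen, as were the alternatives for the regulators. For the regulators, array weights called 9 in castrated minus intact males and 17 in females minus intact males, against 24.5% and 35.2% of all probe sets. No trend called 1 and 3, against 1.3% and 5.27% of all. All 15 arrays in the fit called 1 and 5, against 4.98% and 13.3%. In females quantile normalisation called 3 against 6.34%. No filter and averaged probe sets called 0 there, against 3.53% and 5.41%. The cause was not tested. Groups share replicate numbers, but correlations of same-numbered arrays were -0.12 to 0.14 over 9 pairs of cattle arrays, and 3 exceeded 0.1. With a replicate block the counts were 0, 0, 0 and 0 among cattle and 5, 15 and 9 between species. Over all probe sets 0.992%, 4.46% and 0.0208% were then called in the 3 pairwise cattle comparisons, and 27.6%, 50% and 40.8% between species. RAB2A in yak minus cattle, at 0.56 (adjusted p = 0.0522), and RAB3D in buffalo minus yak, at 0.44 (adjusted p = 0.0606), were no longer called. RAB7A in yak minus cattle was called, at 0.41 (adjusted p = 0.0468). Dim signal limits the 11 untested members, and the array number the rest.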
